A study of Mus musculus with 24 samples.

Results

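The SR splicing factors are nuclear RNA-binding proteins with a domain rich in arginine and serine, and 10 of their genes are described here in mouse bone marrow-derived macrophages: Srsf1, Srsf2, Srsf3, Srsf5, Srsf6, Srsf7, Srsf10, Srsf11, Tra2a and Tra2b. They were taken by symbol from the 23337 symbols of the count files, and all 10 were listed in all 24 libraries. The study set macrophages of Apobec1 -/- mice (KO, 6 cultures) against macrophages of wild-type mice (WT, 6 cultures), all of C57BL/6 background, aged 6 to 12 weeks and matched as littermates or by age. Apobec1 encodes an RNA-editing enzyme that turns cytidine into uridine. Marrow cells were cultured over 7 days with M-CSF (20 ng/mL, and 40 ng/mL in the medium added when it was renewed), the cytokine on which macrophages depend, and received no other treatment. Each culture gave a library of ribosome-protected fragments (footprints, RPF) and a library of total RNA. The labels name 3 batches: KO5, KO6, WT5 and WT6 form batch 3, KO2, KO3, KO4 and WT4 form batch 2, and KO1, WT1, WT2 and WT3 form batch 1. Whether cultures of a genotype stem from separate animals is not stated in the labels, and p-values therefore cover the spread between cultures, which may be technical.

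SR proteins bind exonic enhancer sequences and help the spliceosome to recognise exons, and several also act in RNA export and translation. Their own transcripts are a textbook case of unproductive splicing: most SR genes hold an ultraconserved "poison" exon or a 3' intron whose splicing introduces a premature stop codon, so that the transcript is removed by nonsense-mediated decay and is not translated into the full protein. An SR protein in excess favours the unproductive form of its own message. The ratio of footprints to RNA sets how much of a gene's RNA was under translating ribosomes beside how much RNA there was, although counts per gene do not tell the productive from the unproductive form. Srsf1, Srsf2, Srsf3, Srsf5, Srsf6 and Srsf7 are classical SR proteins, Srsf10 and Srsf11 are members with particular roles (Srsf10 acts as a repressor of splicing when dephosphorylated), and Tra2a and Tra2b are SR-like relatives that bind GAA-rich enhancers.

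Depth ran from 5077478 to 12059361 gene counts in total RNA and from 29561 (WT6) to 3714912 (WT4) in footprints. The 4 footprint libraries of batch 3 were the shallowest, at 29561 to 223504 counts, and a member had 1 to 10 footprint counts in WT6 and 6 to 18 in KO6, against at least 18 in every library outside batch 3. In KO cultures Apobec1 itself had 605 to 1275 CPM (counts scaled to library size by TMM) of total RNA against 314 to 474 CPM in WT cultures, so its RNA was higher in KO (log2 fold change 1.34, edgeR adjusted p = 0.000146). Its footprints were at 0 to 24.7 CPM in KO against 59.6 to 105 CPM in WT, lower in all 6 KO cultures. Batch 3 differed from the other batches in more than depth: its cultures had 1 to 2 counts in total from Y-linked genes and 172 to 386 of Xist, against 973 to 3572 and 2 to 11 in batches 2 and 1. Defining markers of macrophages were present in every batch; in RNA, 6 of 8 were called lower in batch 3 than in batch 1, and 8 of 8 lower than in batch 2. Their summed level, mostly Lyz2, was 15290 to 25226 CPM in batch 3, 27399 to 48890 CPM in batch 2 (highest in WT4) and 21451 to 28688 CPM in batch 1. Fcgr1, an Fc receptor, was at 54.0 to 87.6, 310.2 to 503 and 264 to 298 CPM in the same order, and Mertk, a receptor for dying cells, at 4.55 to 6.37, 35.0 to 58.4 and 44.5 to 57.5 CPM. Of the 8 markers, 2 had a positive log2 difference between batches 3 and 1. Cd68 lay higher in batch 3 than in batch 1, at 282 to 311, 303 to 477 and 231 to 269 CPM in that order of batches.

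Over all cultures, the median footprint to RNA ratio of each of the 10 genes lay above that of the typical gene. Srsf2 lay below the typical gene in all 4 cultures of batch 2 (0.555 to 0.766). Srsf1 did so in all 4 of batch 1 (0.434 to 0.822). Srsf3, Srsf6, Srsf10, Tra2a and Tra2b did so in some cultures, with lowest ratios of 0.628, 0.645, 0.656, 0.427 and 0.613. The median footprint to RNA ratio over the 12 cultures (footprint CPM over RNA CPM) was 1.72 for Srsf7, 1.65 for Srsf11, 1.36 for Srsf6, 1.27 for Srsf5, 1.23 for Srsf2, 1.17 for Tra2b, 1.05 for Tra2a, 0.943 for Srsf10, 0.925 for Srsf3 and 0.842 for Srsf1. All 10 lay above the median of 0.827 over 11116 genes, with Srsf7 above 89.5% of them, Srsf11 above 88.0% and Srsf1, the founding member of the family, above 51.1%. Neighbours in this order changed places between cultures: Srsf7 was above Srsf11 in 6 of 12 cultures and Srsf11 was above Srsf6 in 9 of 12. The ratio is not per length, and the region counted for RNA is not given in the sources used here, so its order between genes also carries the lengths of the regions counted.

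**Figure D1:**
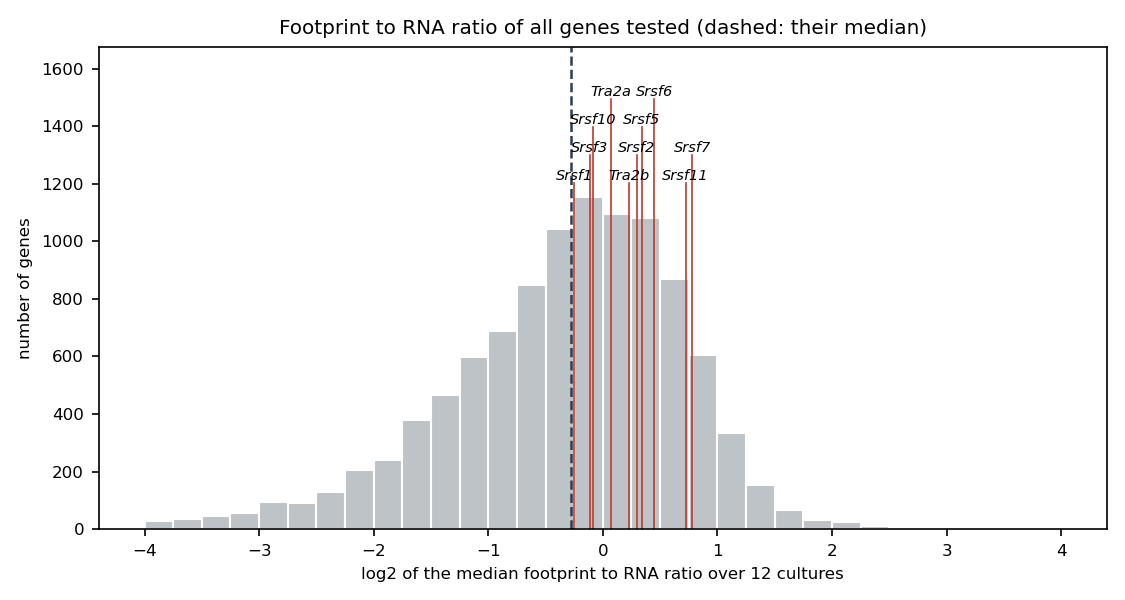
Number of genes by the log2 of their median footprint to RNA ratio over 12 cultures (grey bars; 10388 genes within the plotted range), with the 10 SR splicing factor genes as red lines and the median of all genes as a dashed line. All 10 lie at or right of the dashed line, Srsf1 closest to it at a ratio of 0.842 and Srsf7 farthest at 1.72.

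In the model over all 24 libraries, footprints were higher than total RNA for 6 of the 10 genes and lower for none (edgeR quasi-likelihood test with Benjamini-Hochberg adjustment over 11118 genes, adjusted p under 0.05), beside 27.3% of all genes higher and 38.4% lower. The log2 difference between footprints and RNA was 0.91 (SE 0.12) for Srsf7, 0.82 (SE 0.09) for Srsf11, 0.67 (SE 0.18) for Srsf5, 0.55 (SE 0.10) for Srsf6, 0.28 (SE 0.10) for Srsf2 and 0.27 (SE 0.11) for Tra2b. It was 0.12 for Srsf10, 0.01 for Srsf3, -0.02 for Tra2a and -0.15 for Srsf1, with no call. The zero of this scale moves with the scaling of the libraries: the median of all genes was -0.16 here and -0.58 to -0.06 under the alternatives. Relative to that median, Srsf7 stood at 1.07 (0.97 to 1.31 over 19 alternatives), Srsf11 at 0.98 (0.93 to 1.22), Srsf5 at 0.84 (0.50 to 1.08) and Srsf6 at 0.71 (0.67 to 0.95), while Srsf1 stood at 0.01 (-0.13 to 0.25). Srsf1 lay above that median in 16 of the 19 alternatives, Srsf2 in 18 and the other members in all 19. Srsf7, Srsf11 and Srsf5 were called higher in all 19 alternatives and Srsf6 in 18, the exception being the WT cultures alone (adjusted p = 0.0793). The calls of Srsf2 and Tra2b were less stable, being made in 12 and 9 of the 19 alternatives, and Srsf1 was called lower in 5 of them. With DESeq2, with its size factors in edgeR and with no filter on low counts, 4 members were called higher (Srsf5, Srsf6, Srsf7 and Srsf11) and Srsf1 lower (-0.30, -0.30 and -0.33). Srsf1 was also called lower in the WT cultures alone (-0.37, adjusted p = 0.0196). With the culture as a replicate block, Srsf2 (adjusted p = 0.254) and Tra2b (adjusted p = 0.265) lost their call, and Srsf1 (-0.33, adjusted p = 1.7e-06) and Srsf3 (-0.17, adjusted p = 0.0247) were called lower. Srsf2 and Tra2b also lost it without KO5 (adjusted p = 0.138 and 0.315).

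The RefSeq annotation (GRCm38.p6) gives noncoding curated transcripts, the class that holds many unproductive splice forms, to 3 of the 10 genes: 10 for Srsf11 beside 5 coding ones (chr3:158010915-158036667), 1 for Srsf7 beside 5 (chr17:80200080-80207369) and 1 for Srsf3 beside 1 (chr17:29032660-29043372). Srsf11 and Srsf7 had the highest ratios of the family and Srsf3 the second lowest. Other gene groups of RNA processing had like or higher ratios. The median ratio was 1.67 for 26 core spliceosome genes, of which 24 were called higher in footprints, among them Snrpd3 (log2 difference 2.18) and Prpf19 (1.16). It was 1.49 for 24 other SR and SR-related genes, 14 called higher and 3 lower, led by Srrm1 (1.57) and U2af1 (1.25). It was 1.54 for 27 hnRNP and other RNA-binding protein genes, 18 called higher and 4 lower, led by Hnrnpa1 (6.82, uncertain because near-identical copies share its reads) and Hnrnpa2b1 (1.497). It was 1.39 for 18 genes of nonsense-mediated decay, 9 called higher and 4 lower, with Gspt1 at 1.00 and the kinase Smg1 at -1.42. The 12 genes of SR protein kinases, their phosphatase and nuclear import had a median ratio of 0.811, none called higher and 5 lower, including Dyrk1a (-1.23) and Ppp1cc (-0.81).

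**Figure D2:**
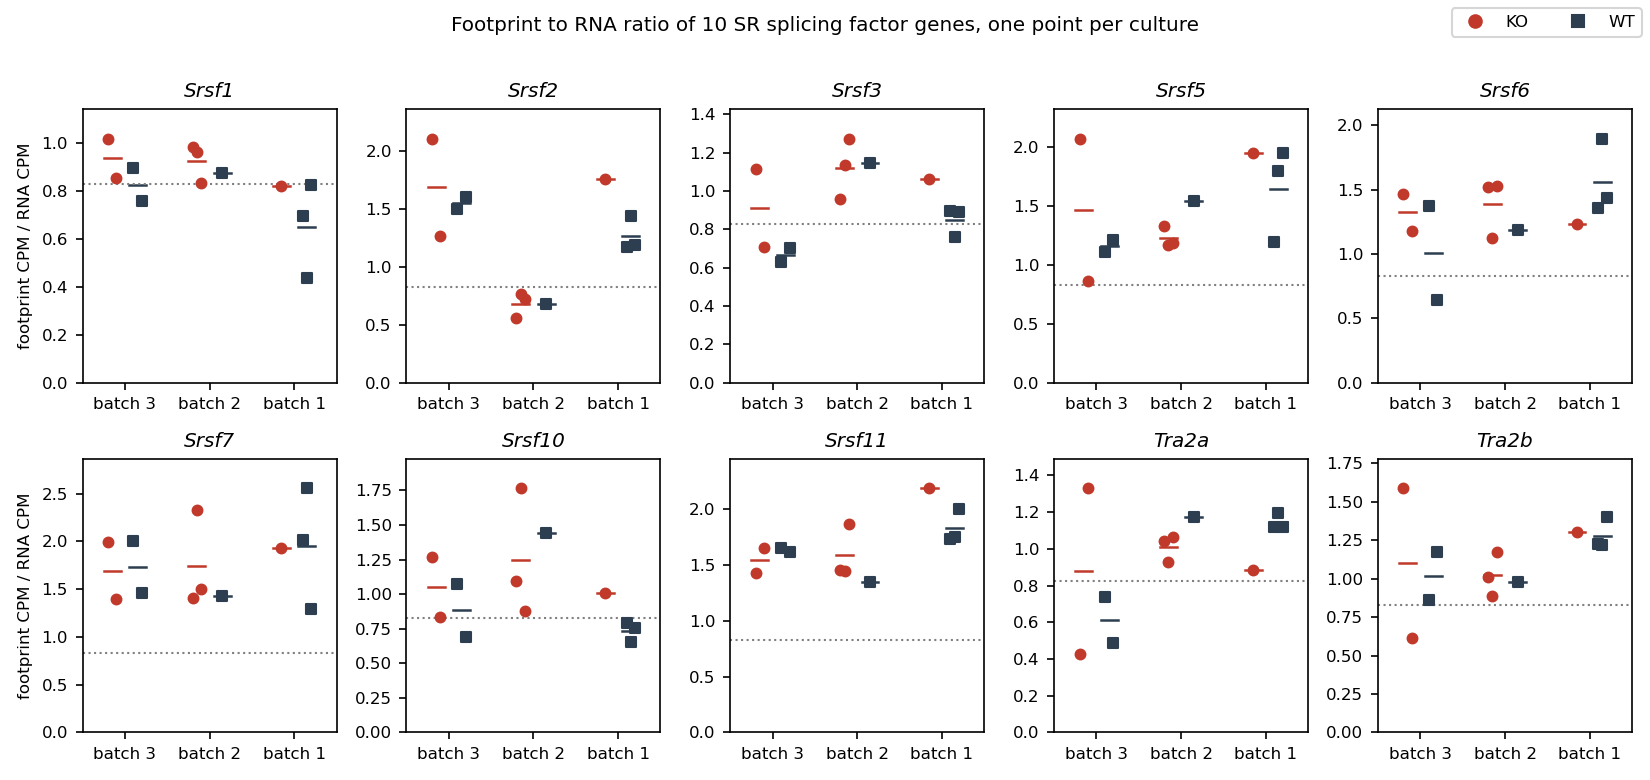
Footprint to RNA ratio (footprint CPM over RNA CPM) of each SR splicing factor gene in every culture, by batch, with KO as red circles and WT as dark squares, short lines for the mean of each group and a dotted line for the median of all genes (0.827). For Srsf2 the 4 cultures of batch 2 lie at 0.555 to 0.766, under every culture of batches 3 and 1.

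The ratio of Srsf2, which encodes the SC35 protein of nuclear speckles, depended on the batch. It was 0.555, 0.766 and 0.722 in KO2, KO3 and KO4 and 0.681 in WT4, the cultures of batch 2. It was 1.76 in KO1 and 1.17, 1.44 and 1.19 in WT1, WT2 and WT3, the cultures of batch 1. In batch 3 it was 2.11 and 1.27 in KO5 and KO6 and 1.504 and 1.60 in WT5 and WT6. Batch 2 thus lay below both other batches without overlap, with WT4 as its only WT culture and KO1 as the only KO culture of batch 1. Batches 2 and 1 also did not overlap in the ratio of Tra2b (0.887 to 1.17 against 1.22 to 1.40) and of Srsf1 (0.831 to 0.982 against 0.434 to 0.822). The share of all genes without overlap in the ratio between batches is not given here. For Srsf2 the log2 difference in ratio between batch 2 and batch 1 was -1.096 (SE 0.26, edgeR adjusted p = 0.0068). It was the only call among the 10 genes, beside 4.25% of all genes called lower. The call was lost (-0.80, adjusted p = 0.0600) when cultures under 1000000 footprint counts were left out, which leaves KO2, KO4 and WT4 in batch 2 and WT1 alone in batch 1, a lone library assumed to vary like the others, and it held in the 17 other alternatives.

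Srsf2 footprints were called lower in batch 2 than in batch 1, and its RNA was not called. Its footprints were 49.98, 62.7 and 61.1 CPM in KO2, KO3 and KO4 and 40.7 CPM in WT4, against 87.4 CPM in KO1 and 85.5, 97.9 and 87.1 CPM in WT1, WT2 and WT3. They fell by 0.92 on the log2 scale in batch 2 relative to batch 1 (SE 0.20, adjusted p = 0.00138), the only member called in this comparison, beside 7.1% of all genes lower, and stayed called in all 17 alternatives, 1 of which has WT1 alone for batch 1. Srsf2 RNA was 90.0, 81.9 and 84.6 CPM in KO2, KO3 and KO4 and 59.9 CPM in WT4, against 49.7 CPM in KO1 and 72.8, 67.9 and 73.5 CPM in WT1, WT2 and WT3, a log2 difference of 0.22 (SE 0.17, adjusted p = 0.379). Srsf2 overlaps the neighbouring gene Mfsd11 on chromosome 11 in the RefSeq annotation (Srsf2 at chr11:116849897-116853675), and without a stated strand setting reads of the overlap cannot be given to either gene. Mfsd11, chosen after its values were seen, had ratios of 1.27 to 1.38 in batch 2 and 1.69 to 1.87 in batch 1, a log2 difference of -0.33 (SE 0.17, adjusted p = 0.221).

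For 2 further genes the ratio between batches 2 and 1 was called in alternatives only, in 2 of 18 for Srsf10 and 1 of 18 for Srsf11. Srsf10 had ratios of 1.096, 1.76 and 0.878 in KO2, KO3 and KO4 and 1.44 in WT4, against 1.01 in KO1 and 0.791, 0.656 and 0.756 in WT1, WT2 and WT3. Its log2 difference was 0.63 (SE 0.22, adjusted p = 0.0704), and 0.64 with the culture as a replicate block (adjusted p = 0.0055), where it was called. Srsf11 had ratios of 1.34 to 1.87 in batch 2 against 1.74 to 2.18 in batch 1, a log2 difference of -0.40 (SE 0.19, adjusted p = 0.198 by edgeR and 0.0396 by DESeq2). With the culture as a replicate block, 2403 genes in place of 1066 were called between batches 2 and 1, and 260 in place of 74 between batches 3 and 1. Between batches 3 and 1 none of the 10 ratios was called, beside 0.666% of all genes, and their log2 differences ran from -0.63 (Tra2a) to 0.32 (Srsf10). At an unadjusted p under 0.05, 0 of the 10 passed in that comparison, with 321 of all genes higher and 949 lower.

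The RNA of 6 of the 10 genes was higher in batch 3 than in both other batches. Against batch 1, 6 of 10 genes were higher in batch 3 and none lower, beside 23.1% of all genes called higher and 22.4% lower, and the median log2 difference was 0.50 over the 10 genes and 0.01 over all 11323 genes. Against batch 2, 8 of 10 were higher and none lower, beside 24.3% of all genes higher and 24.4% lower, with a median of 0.43 over the 10 and 0.01 over all genes. Srsf7, Srsf3, Tra2b, Srsf1, Srsf2 and Tra2a were called in both comparisons, and Srsf10 and Srsf6 against batch 2 only. The comparisons share the batch 3 cultures, so they are not independent of each other. Between batches 2 and 1 none of the 10 was called in RNA by edgeR, beside 23.1% of all genes in either direction, with Srsf1 (-0.35, adjusted p = 0.0664) and Srsf10 (-0.35, adjusted p = 0.0549) under an unadjusted p of 0.05; DESeq2 called both lower.

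Srsf7, which also acts in RNA export, moved most. Its RNA was 68.3 and 60.5 CPM in KO5 and KO6 and 55.0 and 57.1 CPM in WT5 and WT6, the cultures of batch 3. It was 38.9, 28.4 and 32.2 CPM in KO2, KO3 and KO4 and 24.97 CPM in WT4, and 27.3 CPM in KO1 and 35.8, 35.8 and 34.2 CPM in WT1, WT2 and WT3. All 4 cultures of batch 3 lay above all others, by 0.82 on the log2 scale against batch 1 (SE 0.14, adjusted p = 0.000339) and 0.97 against batch 2 (SE 0.14, adjusted p = 9.9e-05).

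Srsf3, the smallest SR protein, had 236 and 194 CPM in KO5 and KO6 and 241 and 197 CPM in WT5 and WT6. It had 137, 124 and 120.1 CPM in KO2, KO3 and KO4 and 85.5 CPM in WT4, and 119 CPM in KO1 and 148, 138 and 137 CPM in WT1, WT2 and WT3. Its log2 differences were 0.66 against batch 1 (SE 0.14, adjusted p = 0.0015) and 0.92 against batch 2 (SE 0.14, adjusted p = 0.000151), again without overlap. A processed pseudogene of Srsf3 exists in the mouse, and reads that fit both copies could be lost or misplaced in its counts.

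Tra2b, an activator of exons with GAA-rich enhancers, had 166 and 138 CPM in KO5 and KO6 and 176 and 142 CPM in WT5 and WT6, against 70.6 to 104 CPM in batch 2 and 86.0 to 108 CPM in batch 1. The log2 differences were 0.63 (SE 0.13) against batch 1 and 0.75 (SE 0.13) against batch 2. Srsf1, which promotes cell growth when overproduced, had 272 and 224 CPM in KO5 and KO6 and 278 and 219.8 CPM in WT5 and WT6, against 110.3 to 148 CPM in batch 2 and 153 to 180.3 CPM in batch 1. Its log2 differences were 0.51 (SE 0.12) and 0.86 (SE 0.12). Srsf2 RNA was 94.6 to 123 CPM in batch 3, 59.9 to 90.0 CPM in batch 2 and 49.7 to 73.5 CPM in batch 1. For Tra2b, Srsf1 and Srsf2 the cultures of batch 3 again lay above all others.

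Tra2a, the close relative of Tra2b, had 47.8 to 74.7 CPM in batch 3, overlapping batch 2 (38.7 to 50.8 CPM) and batch 1 (39.2 to 49.0 CPM). It was higher by 0.49 (SE 0.13, adjusted p = 0.0094) against batch 1. Srsf5, with 147 to 256 CPM in batch 3, was not called against batch 1 (0.37, SE 0.19) or batch 2 (0.43, SE 0.18, adjusted p = 0.0695), where its difference was about that of Srsf2 (0.43, SE 0.15, called) with a larger SE. Srsf6 was called against batch 2 only (0.30, SE 0.10, adjusted p = 0.0276). Srsf11 was not called, at 51.3 to 55.6 CPM in batch 3, 51.1 to 66.7 CPM in batch 2 and 49.8 to 52.3 CPM in batch 1, with log2 differences of 0.04 (SE 0.09) and -0.09 (SE 0.10). In all, 5 of the 10 genes lay above batch 1 without overlap, beside 23.4% of all genes, and 7 of 10 above batch 2, beside 20.6%. The 6 calls against batch 1 held in all 15 alternatives. Against batch 2, 5 members were called without KO5, and 5 without WT4. Srsf2 (adjusted p = 0.140 and 0.176), Srsf6 (0.181 and 0.0643) and Tra2a (0.0987 and 0.145) lost their call in both, and Srsf10 lost it without WT4 (0.29, adjusted p = 0.0572). Srsf5 was called higher against batch 2 in 3 of 15 alternatives: without WT4 (0.58, adjusted p = 0.0416), without KO6 (0.55, adjusted p = 0.0314) and without WT5 (0.53, adjusted p = 0.0348).

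**Figure D3:**
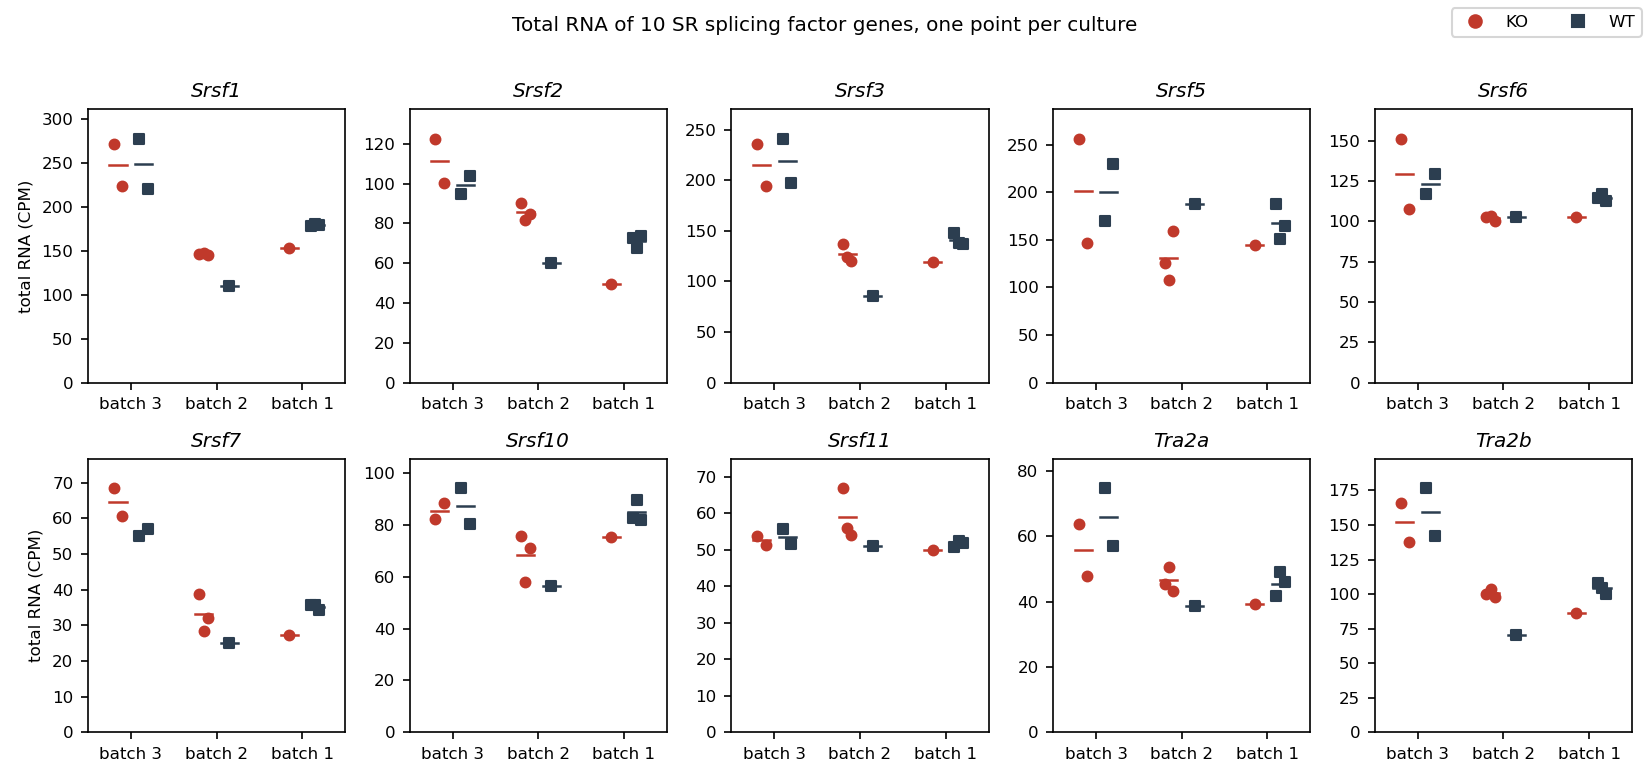
Total RNA (CPM) of each SR splicing factor gene in every culture, by batch, with KO as red circles, WT as dark squares and short lines for the mean of each group. Batch 3 lies above both other batches for Srsf1, Srsf2, Srsf3, Srsf7 and Tra2b, while Srsf11 stays between 49.8 and 66.7 CPM throughout.

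The promoters of Srsf7 and Srsf3, with the largest differences against batch 1 in RNA, and of Srsf11, which was not called, are shown to let their sequences be compared, each from 250 bases before to 50 after the annotated start (RefSeq, GRCm38.p6, 5' to 3' on the gene's strand). Capitals mark matches on either strand to the motifs searched. The motif of ETS factors was searched as CCGGAA, that of the trimeric factor NF-Y as CCAAT, and that of the TATA-binding protein as TATAAA. The cyclic AMP response element was searched as TGACGTCA and the E-box as CACGTG, with the core motifs of NRF1 and YY1 beside them.
Srsf7, chr17:80207256-80207555, minus strand: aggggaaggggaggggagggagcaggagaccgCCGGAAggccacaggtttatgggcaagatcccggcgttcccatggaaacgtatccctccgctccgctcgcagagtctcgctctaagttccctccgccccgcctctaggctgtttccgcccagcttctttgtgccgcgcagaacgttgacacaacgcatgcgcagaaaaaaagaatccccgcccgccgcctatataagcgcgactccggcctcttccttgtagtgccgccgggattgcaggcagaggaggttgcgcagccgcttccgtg
Srsf3, chr17:29032410-29032709, plus strand: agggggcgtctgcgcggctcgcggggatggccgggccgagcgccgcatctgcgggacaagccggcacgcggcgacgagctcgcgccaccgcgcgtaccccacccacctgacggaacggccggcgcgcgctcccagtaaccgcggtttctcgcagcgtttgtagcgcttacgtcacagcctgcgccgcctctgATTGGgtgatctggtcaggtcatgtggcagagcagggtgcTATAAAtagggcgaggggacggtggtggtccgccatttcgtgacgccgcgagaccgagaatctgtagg
Srsf11, chr3:158036557-158036856, minus strand: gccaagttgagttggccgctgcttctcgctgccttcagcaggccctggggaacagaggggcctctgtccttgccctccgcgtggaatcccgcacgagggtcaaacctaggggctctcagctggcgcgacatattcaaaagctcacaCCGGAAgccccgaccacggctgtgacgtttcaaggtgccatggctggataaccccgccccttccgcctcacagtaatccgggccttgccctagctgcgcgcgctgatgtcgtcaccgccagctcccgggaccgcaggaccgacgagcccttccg
All 10 genes matched the promoter table, with 11 windows since Srsf11 has 2 starts, and their median GC content was 62.7% against 52.7% over 32851 promoters. Counts of members below are per gene, over any of its windows, while shares of all promoters are per window. CCGGAA stood in 5 of the 10 genes (Srsf1, Srsf2, Srsf5, Srsf7 and Srsf11), beside 14.9% of all promoters, and CCAAT in 5 (Srsf1, Srsf2, Srsf3, Srsf10 and Tra2a), beside 37.4%. TATAAA was found in Srsf2 and Srsf3, beside 13.6% of all promoters, the cyclic AMP response element in Tra2a only (1.79% of all) and the NRF1 motif in the second start of Srsf11 only (0.971% of all). The E-box (7.15% of all) and the YY1 motif (0.852% of all) were in none of the 11 windows. Srsf7, which was higher in batch 3, and Srsf11, which was not called, both held CCGGAA. The motifs were chosen after the values were seen, and a match is a description of letters, not of binding.

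Related gene groups were split in direction between batches 3 and 1 in total RNA. Of 24 other SR and SR-related genes, 6 were higher and 6 lower, with U2af1, the small subunit of the 3' splice site factor, at 0.46 and Rnps1 at 0.38, but Son and Thrap3 at -0.61 and -0.43. Of 12 kinase, phosphatase and import genes, 2 were higher (Srpk1, an SR protein kinase, 0.40, and Ppp1ca 0.37) and 1 lower (Prpf4b -0.33). Of 18 nonsense-mediated decay genes, 2 were higher and 7 lower, with Smg5 at 0.60, Upf1, the central helicase, at -0.59, Upf2 at -0.47 and the exonuclease Xrn1 at -0.90. Of 26 hnRNP and other RNA-binding protein genes tested, 4 were higher and 4 lower, with the cold-inducible Rbm3 at 1.46. Of 26 core spliceosome genes, 8 were higher (Snrpe 0.67, Snrpa1 0.62) and 7 lower (Prpf8 -0.93, Prpf6 -0.68). The median log2 difference of these 5 groups lay between -0.11 and 0.18. Against batch 2, the groups in the same order had 3 higher and 6 lower, 5 and 0, 3 and 7, 8 and 2, and 6 and 5.

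The mean of the 10 genes on a centred log2 scale was 0.33 in batch 3, -0.21 in batch 2 and -0.11 in batch 1. By culture it was 0.47 in KO5, 0.18 in KO6, 0.37 in WT5 and 0.28 in WT6, and below 0 in all 8 others, lowest in WT4 at -0.41. Outside the members and the gene lists, the closest genes to this pattern over the 12 cultures were sought by root mean square difference on that scale. They were Tatdn2 (0.0584), Nedd1 (0.0866), Set (0.0913), Prps1l3 (0.0914) and Ttl (0.0947). The members themselves lay at 0.132 (Tra2b) to 0.285 (Srsf5) from their mean. The named genes were picked for the smallest distance and the members were not, so these distances cannot be set against each other. Markers of other cells moved with the batches too. The summed level of 10 neutrophil markers was 410.2 to 550.5 CPM in batch 3, 65.4 to 422 CPM in batch 2 and 11.5 to 16.3 CPM in batch 1. In batch 2 its median was 104 CPM, and the highest value was that of WT4, the only WT culture there. In batch 3 it was mostly S100a8 and S100a9, while Mmp8 reached 227 CPM in batch 2. Between batches 3 and 1, 9 of the 10 were called higher and 1 lower. Mmp9 was at 1.19 to 3.43, 4.66 to 23.6 and 6.86 to 10.1 CPM in the same order. The summed level of 5 mast cell markers was 40.0 to 69.0, 1.98 to 3.64 and 6.68 to 12.6 CPM, mostly Kit, with Mcpt4 and Tpsb2 at 0 in all 3 batches. That of 6 dendritic cell markers, mostly Itgax, was 13.9 to 15.8, 17.4 to 81.6 and 95.9 to 153 CPM. Csf1r, the receptor of M-CSF, was at 952 to 1277 CPM in batch 3 against 2692 to 4226 CPM in the other batches. Reads listed under no feature made up 4.32% to 5.53% of the RNA libraries of batch 3, 14.1% to 19.2% in batch 2 and 8.46% to 10.7% in batch 1, without overlap. The part of these differences, of the sex-linked genes and of the batch itself in the SR gene levels was not tested, and with bulk RNA, more cells of a type and more RNA per cell cannot be told apart.

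**Figure D4:**
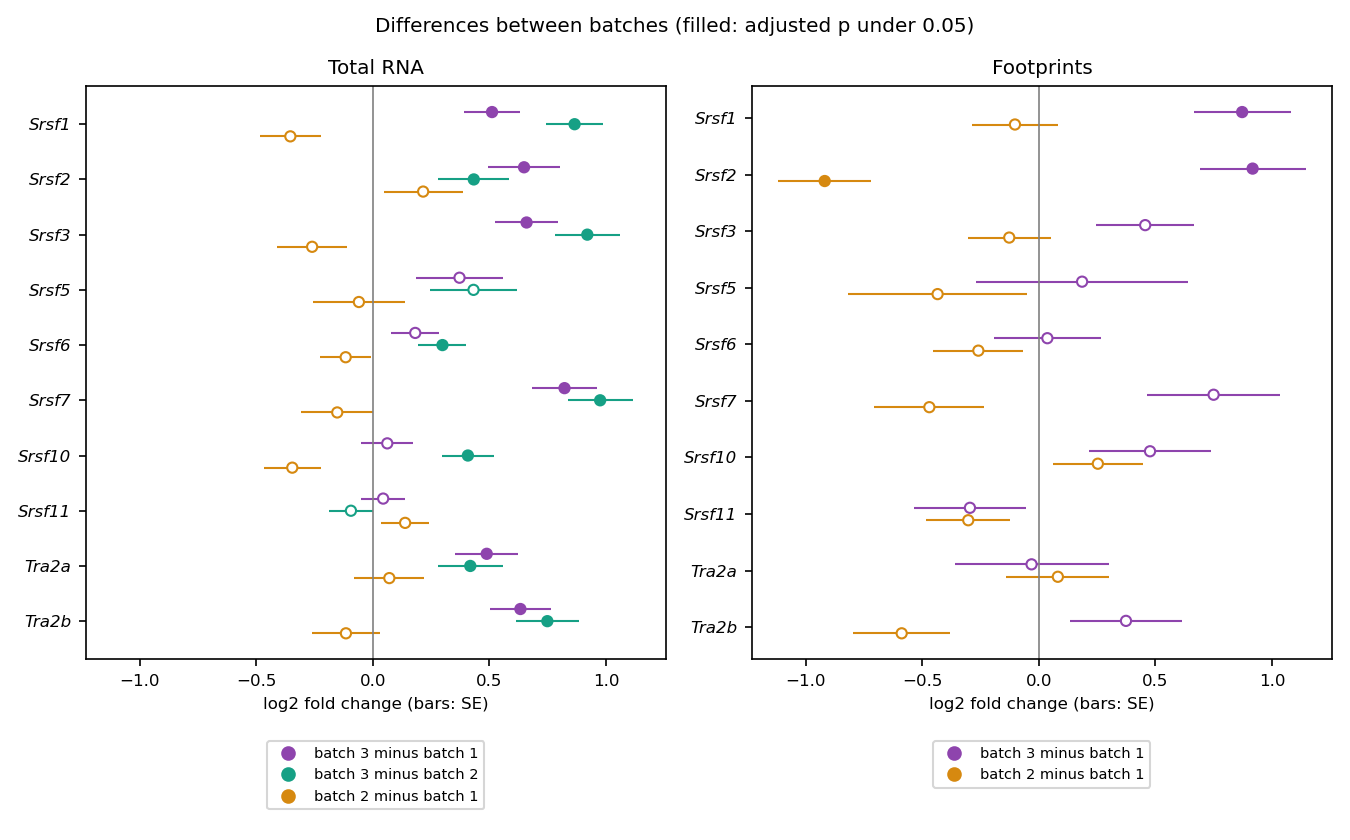
Log2 differences between batches for each SR splicing factor gene in total RNA (left) and footprints (right), with bars for the SE and filled points for an adjusted p under 0.05. In total RNA the batch 3 differences lie right of 0 except for Srsf11 against batch 2, and in footprints Srsf1 and Srsf2 are filled for batch 3 against batch 1.

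In footprints, 2 of 10 genes were higher in batch 3 than in batch 1 and none lower, beside 8.93% of all 7977 genes higher and 10.8% lower. Srsf1 footprints were 276 and 190.4 CPM in KO5 and KO6 and 248 and 167 CPM in WT5 and WT6, against 125 CPM in KO1 and 123, 78.3 and 147 CPM in WT1, WT2 and WT3. The groups did not overlap, as for 3 of the 10 genes (Srsf1, Srsf2 and Srsf3) beside 7.78% of all genes, with a log2 difference of 0.87 (SE 0.21, adjusted p = 0.00241). In WT6 these values rest on 6 counts for Srsf1, 6 for Srsf2 and 5 for Srsf3, where 3 counts are 83.3 CPM. Srsf3 stood at 139 CPM in WT6 against up to 132 CPM in batch 1. With 1 count less in WT6, Srsf1 and Srsf3 would overlap batch 1. Srsf2 footprints were 258 and 127 CPM in KO5 and KO6 and 142 and 167 CPM in WT5 and WT6, above all cultures of batch 1 (85.5 to 97.9 CPM), with a log2 difference of 0.92 (SE 0.23, adjusted p = 0.00337). Srsf1 lost its call without WT5 (adjusted p = 0.0914) and Srsf2 without KO5 (adjusted p = 0.109). Srsf7 stood at 0.75 (SE 0.28, adjusted p = 0.0585), Srsf10 at 0.48 (SE 0.26), Srsf3 at 0.46 (SE 0.21) and Tra2b at 0.37 (SE 0.24), none called. Tra2b, in turn, was at -0.59 in batch 2 against batch 1 (SE 0.21, adjusted p = 0.0507), and was called in 7 of 17 alternatives.

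Between genotypes, no member was called in total RNA, in footprints or in their ratio. In total RNA the log2 differences of KO minus WT, with batch in the model, ran from -0.22 (Srsf5, SE 0.16) to 0.10 (Srsf7, SE 0.12), and their lowest unadjusted p was 0.198. This stands beside 2 of 11323 genes called (0.0177%), 1 of them Apobec1, and 219 genes higher and 313 lower at an unadjusted p under 0.05. Srsf1 RNA, for example, had a lowest, median and highest value of 145, 151 and 272 CPM in KO and 110.3, 179.6 and 278 CPM in WT. Srsf7 had 27.3, 35.6 and 68.3 CPM in KO and 24.97, 35.8 and 57.1 CPM in WT. KO and WT overlapped for all 10 genes in RNA, in footprints and in the ratio, beside 0.0618% of all genes that lay higher and 0.0707% lower in KO RNA without overlap, 0.138% and 0.0878% in footprints and 0.0878% and 0.1% in the ratio.

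Within batches, Srsf5 was the only member whose RNA difference between KO and WT had the same sign in all 3 batches (-0.21 in batch 1, -0.53 in batch 2 and -0.03 in batch 3 on the log2 scale). KO was higher than WT for 0 of 10 genes in batch 1 (where KO1 is the only KO culture), for 8 of 10 in batch 2 (where WT4 stands alone for WT) and for 3 of 10 in batch 3. Srsf2 was at -0.52 in batch 1, 0.51 in batch 2 and 0.16 in batch 3 on the log2 scale, and Srsf3 at -0.24, 0.57 and -0.03. The test of a genotype effect that differs between batches called none of the 10 genes, and Srsf2 came closest (adjusted p = 0.0801). It called 112 of 11823 genes. Srsf2, Tra2b, Srsf3, Srsf7 and Srsf1 had an unadjusted p under 0.05 in it, beside 1477 of the 11823 genes. KO1 and WT4, each alone for its genotype in a batch, were assumed there to vary like the others.

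In footprints the log2 differences of KO minus WT were 0.37 for Srsf3 (SE 0.16, unadjusted p = 0.0253, edgeR adjusted p = 0.498), 0.33 for Srsf2 (SE 0.18), 0.26 for Srsf11 (SE 0.17), 0.25 for Tra2b (SE 0.19), 0.24 for Srsf1 (SE 0.16) and 0.23 for Srsf7 (SE 0.21). Srsf10 (0.09), Srsf6 (0.04), Srsf5 (-0.14, SE 0.34) and Tra2a (-0.18) lay closer to 0 or below it. The 10 had a median of 0.24 and all genes a median of 0.00, and 26 of 7977 genes were called (0.326%). Srsf3 footprints had a lowest, median and highest value of 127, 139 and 263 CPM in KO and 98.1, 127 and 151 CPM in WT. A fit of the 4 cultures over 1000000 footprint counts alone (KO2, KO4, WT4 and WT1) sets the genotypes against each other only by KO2 and KO4 against WT4. The members called there were Tra2b (0.66), Srsf3 (0.55), Srsf11 (0.54) and Srsf1 (0.47) higher and Srsf5 (-0.69) lower. The share of all genes called in that fit is not given here. The difference there rests on 1 WT library, and the other batches did not share all its signs. Within batch 1 KO minus WT was 0.20 for Srsf11, 0.15 for Srsf1 and 0.09 for Srsf3, but -0.24 for Tra2b and 0.07 for Srsf5. Within batch 3 it was 0.39 for Srsf3 and 0.17 for Srsf1, but -0.09 for Tra2b, -0.11 for Srsf11 and 0.18 for Srsf5.

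The ratio differed between KO and WT by -0.06 (Tra2a) to 0.31 (Srsf3, SE 0.21) on the log2 scale, with 9 of 10 values above 0, a median of 0.18 over the 10 and 0.00 over all genes, and no call beside 1 of 11118 genes (0.00899%). None of the 10 had an unadjusted p under 0.05. The groups of other SR genes, kinases, decay factors, hnRNPs and core spliceosome genes had no call between genotypes in RNA, footprints or ratio. In the authors' deposited table of a batch-corrected comparison, which lists Apobec1 at a log2 fold change of 4.88 and states neither its quantity nor its direction, none of the 10 genes had a p under 0.05. The lowest in the authors' deposited table was 0.0540 for Srsf3, at a log2 fold change of -0.36 (SE 0.19). In the ratio computed here as KO minus WT, Apobec1 was at -4.87 and Srsf3 at 0.31, both opposite in sign to the authors' deposited table.

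**Figure D5:**
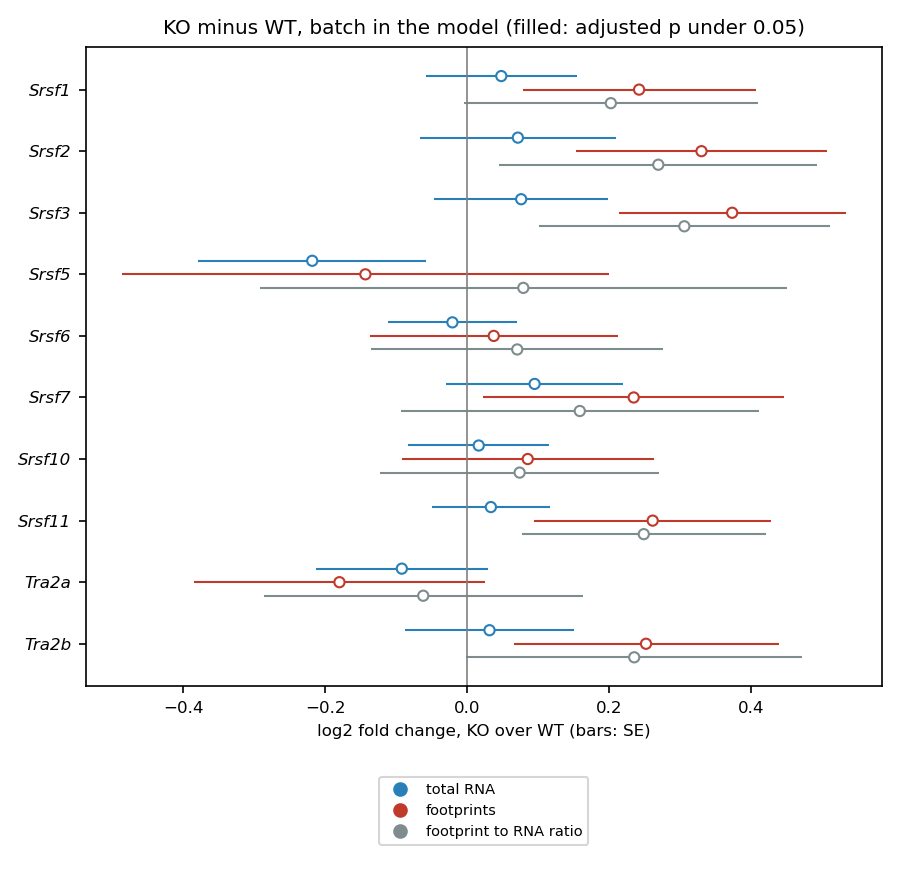
Log2 difference of KO minus WT for each SR splicing factor gene in total RNA (blue), footprints (red) and the footprint to RNA ratio (grey), with batch in the model and bars for the SE. No point is filled, since none had an adjusted p under 0.05, and Srsf3 lies farthest from 0 in footprints at 0.37.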

How the data were processed

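Ribosome-protected fragments and total RNA of 12 macrophage cultures were counted per gene. The deposited counts are whole reads per gene symbol, 1 file per library; per the submitters' processing notes, tools included Trim Galore, Bowtie 1.1.2, TopHat2 2.1.0, Cufflinks 2.2.1, HTSeq, DESeq and DESeq2. Footprints were counted over coding sequence, per the file names in the labels; the sources used here do not give the region counted for total RNA or the strand setting. The authors' deposited tables of a batch-corrected comparison hold log2 fold changes, p-values and a score (the test statistic), and mean normalized signal per gene, from the authors' processing.

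From the counts, edgeR 4.0.16 (R 4.3.3) fitted quasi-likelihood models with TMM scaling, a minimum count of 10 on the design, robust dispersions and Benjamini-Hochberg adjustment over all genes tested, with a threshold of 0.05. RNA and footprints each had genotype and batch as terms, and 1 model over 24 libraries gave the ratio (the interaction with molecule). Standard errors are the log2 difference over the square root of F; where edgeR's Poisson bound raised a p-value, the SE can look too small for it. CPM use TMM-scaled library sizes. Reads listed under no feature (4.32% to 19.2% of RNA libraries) stayed out. Footprints and RNA of 1 culture share its number and culture in the labels. The labels thus pair them. Their deviations from the mean of their genotype correlated in all 12 cultures (0.193 to 0.524), but these deviations also hold the batch, which both libraries share. The main model over 24 libraries held no culture block, so its p-values leave this pairing out. The culture served as a replicate block in an alternative only. Within batches the correlation ran from -0.00736 to 0.802. It was -0.00736 to 0.0859 in the cultures of batch 3, 0.0705 in WT2 and 0.0779 in WT3, and 0.229 to 0.802 in the others. Replicates differed by more than counting noise in every pair (lowest chi-square per degree of freedom 1.31). Alternatives were DESeq2 1.42.0, its size factors, no filter, no batch term, both replicate blocks, WT cultures alone, deeper cultures only and leaving out each culture. The procedure was also run on simulated counts with the same dispersion for all genes and no batch effect. These data do have batch differences, so that run does not tell how the procedure performs on them.

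The 10 members and the gene lists were chosen with earlier results of these data known. Named genes are all members and up to 4 genes of a list with the smallest p in a comparison. List symbols were matched through older names; 1, Srsf8, was not matched.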

Additional observations from a re-analysis of the deposited data

Results flagged for a closer look

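In 8 of 60 groups of 6 cultures, 1 culture stood far from the other 5 relative to the range of its group; chance gives about 1 in 20 such groups. In KO5, a batch 3 culture, total RNA of Srsf5 (256 CPM) and Srsf6 (151 CPM) was the highest of the 6 KO cultures. The footprints of Srsf2 (258 CPM), Srsf3 (263 CPM) and Tra2b (263 CPM) were also highest in KO5, whose footprint library held 223504 counts. Srsf11 RNA was highest in KO2 among KO cultures (66.7 CPM) and in WT5 among WT cultures (55.6 CPM). Srsf10 RNA was lowest in WT4 among WT cultures (56.2 CPM), the only WT culture of batch 2. The groups mix 3 batches, and the part of batch in these values was not tested.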

How the results depend on the processing

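The 6 higher calls in RNA of batch 3 over batch 1 and the lower Srsf2 footprints of batch 2 kept their call in every alternative run, and no member of RNA KO against WT gained one. In the list below a value after a member is its log2 difference, and the cause of each move was not tested. Of the values that turned sign, only that of Srsf2 in footprints over RNA had been called, and only Srsf3 was called after turning (culture block). With DESeq2, there were 2 members in place of 1 in ratio batch 2 against 1, 176 genes in place of 74 in ratio batch 3 against 1, 3 genes in place of 26 in footprints KO against WT, 7 genes in place of 2 in total RNA KO against WT, 2 members in place of 0 in total RNA batch 2 against 1. Turned signs were seen for Tra2a (-0.013) in ratio batch 2 against 1, Srsf3 (-0.14), Srsf10 (-0.033) in footprints over RNA. With DESeq2's size factors in edgeR, there were 2 members in place of 1 in footprints batch 2 against 1. With it, signs turned for Tra2a (-0.0049) in ratio batch 2 against 1, Srsf3 (-0.14), Srsf10 (-0.033) in footprints over RNA. With the culture as a replicate block (pairing footprints and RNA), there were 2403 genes in place of 1066 in ratio batch 2 against 1, 2 members in place of 1 in ratio batch 2 against 1, 260 genes in place of 74 in ratio batch 3 against 1. Signs turned there for Srsf10 (-0.053) in ratio KO against WT, Srsf3 (-0.17), Srsf10 (-0.066) in footprints over RNA. Without batch in the model, there was 1 gene in place of 26 in footprints KO against WT. Turned signs were seen for Srsf2 (-0.070), Srsf7 (-0.033) in ratio KO against WT, Srsf6 (-0.057) in footprints KO against WT, Srsf1 (-0.071), Srsf3 (-0.024), Srsf10 (-0.10), Tra2b (-0.019) in total RNA KO against WT. With no filter on low counts, there were 26 genes in place of 1 in ratio KO against WT, 159 genes in place of 26 in footprints KO against WT, 2 members in place of 1 in footprints batch 2 against 1, 10 genes in place of 2 in total RNA KO against WT, 1 member in place of 0 in total RNA batch 2 against 1. With it, signs turned for Srsf6 (-0.027) in footprints batch 3 against 1, Srsf3 (-0.17), Srsf10 (-0.060) in footprints over RNA. With the KO and WT replicate number as a replicate block, there were 7 genes in place of 26 in footprints KO against WT, 0 genes in place of 2 in total RNA KO against WT. Signs turned there for Srsf5 (0.15), Srsf10 (-0.053) in footprints KO against WT, Srsf11 (-0.00057), Tra2b (-0.0029) in total RNA KO against WT. In WT cultures alone, signs turned for Srsf3 (-0.27), Srsf10 (-0.022) in footprints over RNA. Without KO6 and WT6, a choice made after seeing the data, there were 16 genes in place of 26 in footprints KO against WT, 2 members in place of 1 in footprints batch 2 against 1. With the 4 cultures over 1000000 footprint counts alone, where WT1 is the only library of batch 1, there were 2 genes in place of 1 in ratio KO against WT, 0 members in place of 1 in ratio batch 2 against 1, 1510 genes in place of 26 in footprints KO against WT, 5 members in place of 0 in footprints KO against WT, 2020 genes in place of 1206 in footprints batch 2 against 1, 3 members in place of 1 in footprints batch 2 against 1, with the median ratio of Srsf2 at 0.701 in place of 1.23. With it, signs turned for Srsf2 (-0.052), Srsf3 (-0.014), Srsf5 (-0.26), Srsf10 (-0.50) in ratio KO against WT, Srsf5 (0.35) in ratio batch 2 against 1, Srsf10 (-0.14), Tra2a (0.054) in footprints KO against WT, Srsf5 (0.37), Tra2a (-0.026) in footprints batch 2 against 1, Srsf2 (-0.062), Srsf10 (-0.028), Tra2a (0.26) in footprints over RNA. Leaving out 1 culture in turn gave 358 to 1335 genes in ratio batch 2 against 1, 1 to 2 members in ratio batch 2 against 1, 11 to 84 genes in ratio batch 3 against 1, 2 to 313 genes in footprints KO against WT, 1 to 3 members in footprints batch 2 against 1, 600 to 1238 genes in footprints batch 2 against 1, 1026 to 1680 genes in footprints batch 3 against 1, 1 to 3 members in footprints batch 3 against 1, 1 to 4 genes in total RNA KO against WT, 0 to 2 members in total RNA batch 2 against 1, 1362 to 3107 genes in total RNA batch 2 against 1, 5 to 9 members in total RNA batch 3 against 2. The 313 genes came without KO1 and the 2 without WT4. Uncalled members took both signs in those fits. The ratio KO against WT ranges were -0.053 to 0.47 for Srsf5, -0.11 to 0.26 for Srsf6, -0.082 to 0.24 for Srsf7, -0.080 to 0.28 for Srsf10, -0.25 to 0.046 for Tra2a. The ratio batch 2 against 1 ranges were -0.31 to 0.10 for Srsf6, -0.080 to 0.18 for Tra2a. The ratio batch 3 against 1 ranges were -0.027 to 0.27 for Srsf2. The footprints KO against WT ranges were -0.44 to 0.39 for Srsf5, -0.13 to 0.29 for Srsf6, -0.10 to 0.50 for Srsf7. The footprints batch 2 against 1 ranges were -0.24 to 0.085 for Srsf1, -0.33 to 0.0029 for Srsf3, -0.099 to 0.39 for Tra2a. The footprints batch 3 against 1 ranges were -0.60 to 0.50 for Srsf5, -0.23 to 0.12 for Srsf6, -0.28 to 0.20 for Tra2a. The footprints over RNA ranges were -0.090 to 0.038 for Srsf3, -0.10 to 0.073 for Tra2a. The total RNA KO against WT ranges were -0.098 to 0.17 for Srsf1, -0.11 to 0.31 for Srsf2, -0.12 to 0.21 for Srsf3, -0.12 to 0.040 for Srsf6, -0.023 to 0.28 for Srsf7, -0.088 to 0.098 for Srsf10, -0.038 to 0.072 for Srsf11, -0.23 to 0.0048 for Tra2a, -0.16 to 0.16 for Tra2b. The total RNA batch 2 against 1 ranges were -0.097 to 0.46 for Srsf2, -0.24 to 0.024 for Srsf5, -0.40 to 0.016 for Srsf7, -0.00075 to 0.26 for Tra2a, -0.29 to 0.14 for Tra2b. The total RNA batch 3 against 1 ranges were -0.022 to 0.11 for Srsf10. KO and WT cultures of one number did not deviate together in every pair (correlations 0.0508 to 0.86 in RNA and 0.0575 to 0.273 in footprints), so that number was taken only as a name. Apart from what is given above and beside the results, the culture block changed no other call of a member. Depth limits the footprints of batch 3 most. A member had 1 to 10 counts in WT6, where 1 count could be a large share of its value, and 6 to 18 in KO6.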
